A study of Mus musculus with 6 samples.

Results

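The respiratory chain genes were the nuclear genes that encode subunits and assembly factors of mitochondrial complexes I to V. They were found by symbol among the array probe sets annotated to exactly 1 gene: symbols that start with Nduf, Sdha, Sdhb, Sdhc, Sdhd, Uqcr, Cox4, Cox5, Cox6, Cox7, Cox8 or Atp5. The rule found 94 genes of 18193, and each was read from the brightest of its probe sets, by the mean of all 6 arrays. Complex I had 44 of them, complex II 8, complex III 8, complex IV 17 and complex V 17. A filter on dim genes left 88 of the 94 for testing, beside 13645 of all genes. The prefix rule could not reach every subunit: 8 matching symbols, Ndufs6 and Ndufa11 among them, occurred only in probe sets shared by several symbols and were left out, and Cox7b was not analysed here.

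The cells were corticothalamic projection neurons of C57BL/6 mice, the deep-layer cortical neurons whose axons end in the thalamus. They had been labelled by green fluorescent microspheres placed in the thalamus, which travel back along axons to the cell body, and were then sorted by fluorescence from dissociated cortex. The E18 group was injected at E17.5 and collected at E18.5, the P3 group was injected at P1 and collected at P3, and the P6 group was injected at P4 and collected at P6. Each group had 2 arrays, no group carried a transgene or drug treatment in the labels, and the comparisons were therefore between stages. The microspheres had 1 day to reach the cell bodies in the E18 group and 2 days in the P3 and P6 groups, so the length of labelling and the stage cannot be told apart in a comparison with E18. Nothing in the labels says that the arrays of a stage hold RNA of different animals or sorts; the p-values therefore cover the spread among these 6 arrays alone, which may be technical.

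The respiratory chain sits in the inner mitochondrial membrane. Complex I takes electrons from NADH and complex II takes them from succinate, both pass them through ubiquinone to complex III, and cytochrome c carries them on to complex IV, which reduces oxygen. Complexes I, III and IV pump protons, and complex V, the ATP synthase, uses the proton gradient to make ATP. Most subunits are encoded in the nucleus and a few core subunits of complexes I, III, IV and V in the mitochondrial genome, whereas complex II is wholly nuclear. Neurons draw most of their ATP from this chain, and its demand grows as axons, synapses and firing mature.

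The 6 arrays were not equally alike, and this bears on every comparison below. The E18 arrays correlated at 0.998 over all probe sets with 0 of them differing by more than 2-fold. For the P3 pair the correlation was 0.961, with 3664 such probe sets, and for the P6 pair 0.976, with 1710. Signal for 18S ribosomal RNA was 14.22 on P3 replicate 2 and 13.92 on P6 replicate 1 (log2) and lay between 11.32 and 11.83 on the other arrays. Other array controls moved with stage. The 3′ minus 5′ signal of Actb was 0.56 and 0.58 for the E18 pair, 1.19 and 1.76 for P3, and 1.06 and 0.82 for P6, and that of Gapdh was 1.48 and 1.44, then 2.55 and 1.68, then 2.08 and 1.79. The hybridization controls (mean log2) read 9.59 and 9.25, then 11.72 and 11.59, then 13.01 and 9.85. The part of the 3′ minus 5′ differences in the results was not tested; for the hybridization controls and 18S ribosomal RNA, fits with each as a covariate are given with the alternatives. Cell type markers also moved: 14 of 16 tested progenitor and proliferation genes fell between E18 and P3, and the log2 of their summed signal was 16.11 and 16.15 on the E18 arrays, then 11.94 and 11.58 at P3, then 11.97 and 11.98 at P6. The label of corticothalamic neurons is thus accompanied at E18 by strong signal of progenitor genes. Of 10 astrocyte markers 6 fell and 1 rose between E18 and P3 (summed signal 14.74 on both E18 arrays, 10.997 and 11.18 at P3, 11.64 and 12.83 at P6), and 7 of 9 tested microglia markers fell (13.03 and 13.02, then 10.26 and 11.32, then 10.99 and 12.73). Corticothalamic markers rose in 10 of 12 cases (12.68 and 12.76, then 14.62 and 13.97, then 14.78 and 14.60) and pan-neuronal markers in 8 of 12. These marker counts are of genes at a limma adjusted p below 0.05, at which 15.5% of all genes tested rose and 25.7% fell between E18 and P3. In such bulk samples, fewer cells of a type and less RNA per cell cannot be told apart, and the part of these marker shifts in the values of the respiratory chain was not tested.

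Between E18 and P3 few respiratory chain genes passed the test for a change. Of 88 tested, 2 rose and 9 fell (limma, Benjamini-Hochberg adjusted p below 0.05, here termed called), which is 12.5% beside 41.3% of all genes tested and 39.9% of the brightest 25% of genes, those with means of at least 9.53. Genes called higher made up 15.5% of all genes tested and genes called lower 25.7%. The genes that rose were Ndufv3, an accessory subunit of complex I, and Uqcrb, an accessory subunit of complex III. The genes that fell were Sdha, Sdhd, Sdhaf1 and Sdhaf3 of complex II, Uqcrfs1 and Uqcrh of complex III, Cox7a2l of the complex IV set, and Atp5d and Atp5g2 of complex V. The sizes were small as well: the median absolute log2 change was 0.34 for the respiratory chain, 0.64 for all genes tested and 0.66 for the brightest 25%. For 45 of the 88 genes the 95% confidence interval of the change lay within 2-fold in both directions, and 8 of 88 estimates exceeded 2-fold. At an unadjusted p below 0.05 there were 23 of the 88 genes, beside 7206 of all 13645 genes tested. A gene that was not called is not thereby shown to be unchanged.

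The arrays of P3 disagreed on the level of the chain. The median log2 change of the 88 genes between E18 and P3 was -0.19, beside -0.13 for all genes tested and -0.31 for the brightest 25%. The chain median changed sign, to 0.14 after quantile normalization, to 0.06 with 18S signal as a covariate and to 0.05 without P3 replicate 2. P3 replicate 2 was the lowest of the 6 arrays for 68 of the 88 genes (77.3%, beside 40.5% of all genes tested). Its bright signals were low in general: the upper quartile of the array was 7.92, beside 8.35 and 8.39 on the E18 arrays. Its median was 6.53, beside 6.41 on both E18 arrays. The chain genes are bright, with medians of 11.25 and 11.36 on the E18 arrays. Whether they were lowest there more often than other genes of similar brightness was not tested. Within P3, 3 of 88 genes were higher on replicate 2, with a median difference of -0.49 beside -0.27 for all genes. P6 replicate 2 was the highest array for 39 genes (44.3%, beside 18.3% of all genes), and 68 of 88 genes were higher there than on P6 replicate 1. Against the E18 mean, the median of the 88 genes was 0.05 and -0.50 on the P3 arrays and -0.08 and 0.21 on the P6 arrays. No direction can therefore be given for the chain as a whole.

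**Figure D1:**
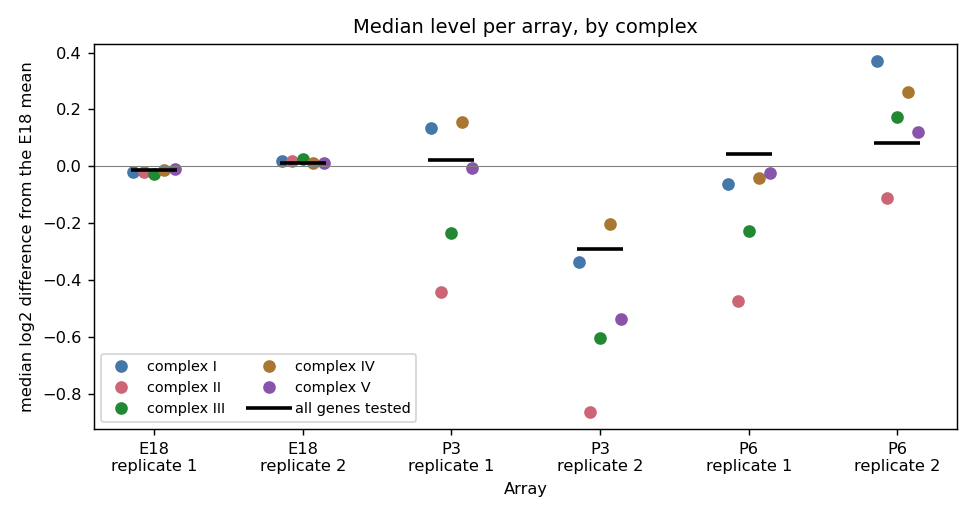
Median log2 difference from the E18 mean on each of the 6 arrays for the tested genes of complexes I to V (coloured points) and for all genes tested (black bars). P3 replicate 2 lies lowest for every complex, at -0.86 for complex II and -0.20 for complex IV, and complex II is below the E18 mean on all 4 postnatal arrays.

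Between P3 and P6 no respiratory chain gene was called by limma, and the share among all genes tested was 0. At an unadjusted p below 0.05 there were 8 respiratory chain genes of 88 and 19.8% of all genes tested. Estimates were positive for 76 of the 88 genes, beside 8789 of all 13645 genes tested and 2631 of the 3412 genes in the brightest 25%. The median was 0.26 for the chain, 0.16 for all genes tested and 0.31 for the brightest 25%. Without P3 replicate 1, the same comparison called 30 of the 88 (34.1%), beside 28.7% of all genes.

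Between E18 and P6 few chain genes were called again. Of 88 genes, 1 rose and 3 fell, which is 4.55% beside 31.7% of all genes tested (14.8% higher and 16.9% lower) and 30.8% of the brightest 25%. Ndufv3 rose, and Atp5g2, Sdhaf3 and Cox7a2l fell. The median change was 0.07 beside 0.08 for all genes tested and 0.01 for the brightest 25%. The median absolute change was 0.27 beside 0.51 and 0.55. For 54 of the 88 genes the 95% interval lay within 2-fold.

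These counts depended on how the E18 pair was treated. With the closely matching E18 arrays averaged into 1, or with either of them left out, 2 of the 88 genes were called in P3 minus E18 and 2 in P6 minus E18, and in all these fits they were Atp5g2 and Sdhaf3. The share of all genes tested called for P3 minus E18 was then 18.0% with the pair averaged, and that for P6 minus E18 was 17.3%. With E18 replicate 1 or 2 left out, the share for P3 minus E18 was 18.8% and 17.6%. Without P3 replicate 1, 38 of 88 genes (43.2%) were called in P3 minus E18, beside 57.7% of all genes. All 11 genes called in P3 minus E18 and all 4 called in P6 minus E18 kept their sign in every alternative that gave them a value. The P3 minus E18 calls of Sdhd, Uqcrfs1 and Uqcrh were also lost without either P6 array (limma adjusted p up to 0.0653), where their estimates did not move, and the P6 minus E18 call of Ndufv3 without P6 replicate 2 (0.74, adjusted p = 0.0538).

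**Figure D2:**
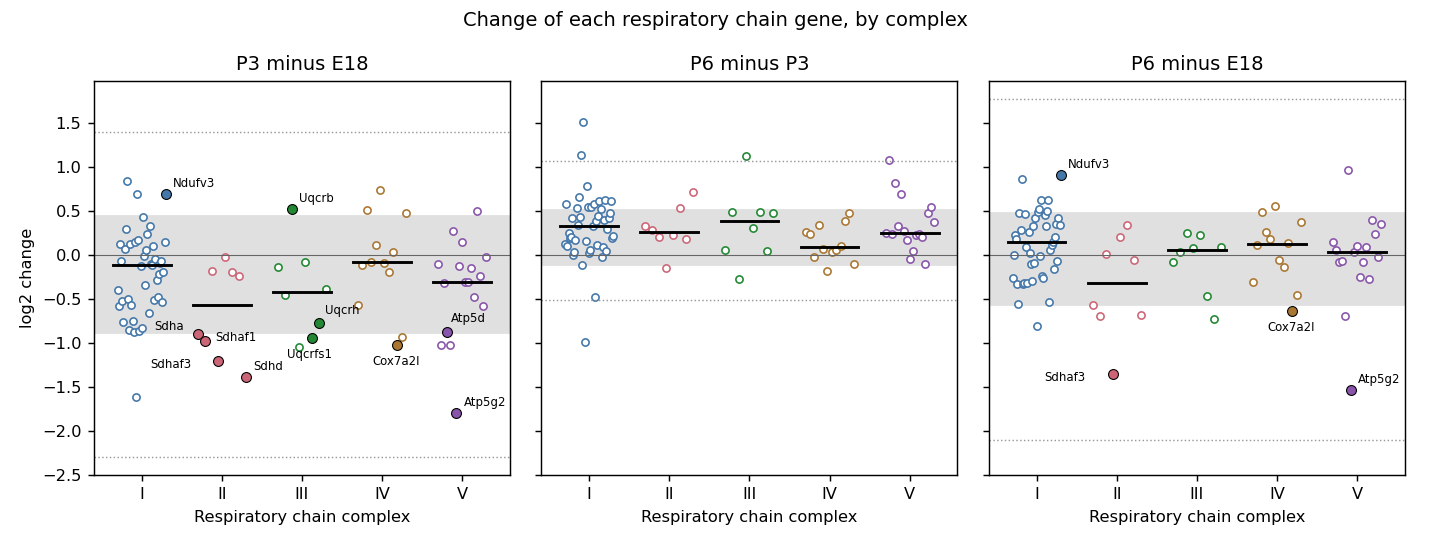
Log2 change of each of the 88 tested respiratory chain genes, by complex, for P3 minus E18, P6 minus P3 and P6 minus E18. Filled, named points are genes called by limma at an adjusted p below 0.05, black bars are medians per complex, the grey band holds the middle 50% of all genes tested and the dotted lines their 5th and 95th percentiles; 11, 0 and 4 genes are called.

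Complex I is the largest of the complexes, with a hydrophilic arm that oxidises NADH and a membrane arm that pumps protons. Of its 43 tested genes 1 was called between E18 and P3 and 1 between E18 and P6, in both cases Ndufv3. The shares of all genes tested were 41.3% and 31.7%. Ndufv3 read 11.31 and 11.37 on the E18 arrays, then 12.10 and 11.97 at P3, then 12.08 and 12.42 at P6 (log2). Both postnatal pairs lay above both E18 arrays. Such a gap was common in these data and is given below as description only. In either direction, P3 arrays did not overlap E18 for 51 of the 88 chain genes and 10998 of all 13645 genes tested. For P6 the counts were 52 and 11025. The change was 0.69 ± 0.20 (SE, n = 2 arrays per stage; limma adjusted p = 0.0318) at P3 and 0.91 ± 0.20 (adjusted p = 0.0129) at P6. The gene is an accessory subunit of the NADH-oxidising end of the complex.

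None of the catalytic genes of complex I, each read from its brightest probe set, was called in any comparison. Ndufv1, which binds NADH and the flavin, read 11.44 and 11.51 on the E18 arrays, then 11.46 and 11.10 at P3, then 11.85 and 11.95 at P6. Ndufv2, its iron-sulfur partner, read 11.45 and 11.40, then 11.86 and 11.28, then 11.79 and 11.74. Ndufs1, which carries further iron-sulfur clusters, read 10.37 and 10.45, then 10.46 and 9.78, then 10.63 and 10.40. For each of these NADH-oxidising genes the P3 arrays overlapped the E18 arrays on the brightest probe set. Other probe sets disagreed. Those of Ndufv1 gave -0.10 and -1.15 between E18 and P3, and those of Ndufv2 gave -0.76 and 0.72. Ndufs3, Ndufs7 and Ndufs8, of the part that hands electrons to ubiquinone, had changes of -0.48, -0.07 and -0.54 between E18 and P3 and of 0.15, 0.35 and -0.07 between E18 and P6, none of them called. A second Ndufs7 probe set gave -1.36 between E18 and P3 and -0.60 between E18 and P6.

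The 27 tested accessory subunits other than the Ndufa4 family included Ndufv3 and 26 that were not called in either comparison. Ndufa5, a subunit of the hydrophilic arm, came nearest: it read 9.84 and 9.94 on the E18 arrays, then 11.15 and 10.30 at P3, then 10.57 and 10.94 at P6. All 4 postnatal arrays lay above both E18 arrays, and the change was 0.84 ± 0.33 at P3 (adjusted p = 0.0752) and 0.86 ± 0.33 at P6 (adjusted p = 0.0847). Ndufa4 has been assigned to complex IV since it was named and Ndufa4l2 is its hypoxia-linked relative; their changes between E18 and P6 were 0.48 and 0.29, not called. Ndufb4 was too dim to test, at 4.91 to 5.82.

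The 8 complex I assembly factors, which build the complex but are not part of it, held the widest estimates. Ndufaf3 read 9.86 and 9.91 on the E18 arrays, then 9.11 and 7.43 at P3, then 9.24 and 10.33 at P6. The P3 arrays lay below the rest but differed from each other by more than 2-fold, and the change of -1.62 ± 0.57 was not called (adjusted p = 0.056). Ndufaf1 read 8.47 and 8.40, then 8.01 and 7.11, then 8.37 and 9.02. Ndufaf4 ran the other way on its brightest probe set, with 8.997 and 9.05, then 9.64 and 9.79, then 8.30 and 9.14. Its second probe set differed by 0.54 between E18 and P3 but by only 0.03 between P3 and P6. None of the 8 was called in any comparison, including Ndufaf3 and Ndufaf4, which had the highest and lowest estimates of P6 minus P3 among the 88 genes, at 1.52 and -0.99.

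Complex II, succinate dehydrogenase, also acts in the citric acid cycle. It had the highest share of called genes among the complexes between E18 and P3: 4 of 8 fell, a share of 50% that lies near the 41.3% of all genes tested. All 8 estimates were negative, with a median of -0.57, beside 7448 negative estimates among all 13645 genes tested. Between E18 and P6, 1 of 8 was called, beside 31.7% of all genes tested, with a median of -0.32. Sdha, the flavin-bearing catalytic subunit, read 11.48 and 11.51 on the E18 arrays, then 10.73 and 10.46 at P3, then 10.85 and 11.01 at P6. The change at P3 was -0.90 ± 0.22 (adjusted p = 0.0166). A second Sdha probe set with similar signal did not share it: that set read 10.51 and 10.48, then 10.61 and 10.33, then 10.75 and 10.42, a difference of -0.02 between E18 and P3.

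Sdhb, the iron-sulfur catalytic subunit, read 11.47 and 11.57 on the E18 arrays, then 11.64 and 11.01 at P3, then 11.79 and 11.93 at P6, with overlapping arrays at E18 and P3 and no call. Sdhd, a membrane anchor that helps bind ubiquinone, read 11.29 and 11.37, then 10.53 and 9.36, then 10.23 and 11.08. Its change at P3 was -1.39 ± 0.44 (adjusted p = 0.0384), and it was -0.81 and no longer called without P3 replicate 2. Its second probe set differed by -0.14. Sdhc, the other anchor, read 10.17 and 10.05, then 9.91 and 9.83, then 9.95 and 10.14, a change of -0.24 ± 0.23 that was not called. Its second probe set read 10.50 and 10.59, then 9.57 and 8.04, then 9.48 and 10.29, a difference of -1.74 between E18 and P3.

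Of the 4 assembly factors of complex II, 2 fell between E18 and P3. Sdhaf3, which helps mature the iron-sulfur subunit, read 7.61 and 7.62 on the E18 arrays, then 6.53 and 6.28 at P3, then 6.05 and 6.46 at P6. All 4 postnatal arrays lay below E18, with changes of -1.21 ± 0.20 at P3 (adjusted p = 0.00378) and -1.36 ± 0.20 at P6 (adjusted p = 0.00223). Sdhaf3 kept its call at P6 in all 16 alternatives that tested it, and at P3 it lost it only under adjustment for the hybridization controls (adjusted p = 0.0535). Sdhaf1, which acts on the same subunit, read 8.84 and 8.89, then 8.17 and 7.61, then 8.22 and 8.13, a change of -0.98 ± 0.26 at P3 (adjusted p = 0.0218). Sdhaf2, which attaches the flavin to Sdha, and Sdhaf4 had changes of -0.18 and -0.03 at P3, not called. Averaging all probe sets of each gene left 2 of the 8 genes called, and the E18 pair averaged left 1.

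Complex III, the cytochrome bc1 complex, had 1 gene that rose and 2 that fell among 8 between E18 and P3 (37.5%, near the 41.3% of all genes tested), with a median of -0.42. It had 0 called between E18 and P6, beside 31.7% of all genes tested. At an unadjusted p below 0.05 there was 1 of 8, beside 5820 of all 13645 genes tested. Uqcrb, an accessory subunit near the ubiquinone site, read 13.12 and 13.12 on the E18 arrays, then 13.72 and 13.57 at P3, then 13.32 and 13.43 at P6. Both P3 arrays were the highest, and the change was 0.52 ± 0.14 (adjusted p = 0.0233), while its second probe set differed by 0.39 with overlapping arrays. Uqcrfs1, the Rieske iron-sulfur protein, read 11.54 and 11.58, then 10.996 and 10.23, then 10.98 and 11.22, with a change of -0.95 ± 0.29 at P3 (adjusted p = 0.0366). Without P3 replicate 2 that change was -0.57 and not called.

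Uqcrh, the hinge protein next to cytochrome c1, read 10.81 and 10.92 on the E18 arrays, then 10.32 and 9.84 at P3, then 10.13 and 10.13 at P6. Its changes were -0.78 ± 0.25 at P3 (adjusted p = 0.0436) and -0.73 ± 0.25 at P6 (adjusted p = 0.0641), and its second probe set gave -0.78 at P3. Uqcrc1, a core protein, read 12.08 and 12.13, then 11.69 and 10.42, then 12.25 and 12.13, so that the low value was that of P3 replicate 2. Uqcrc2, the other core protein, read 11.21 and 11.31, then 11.53 and 10.83, then 11.22 and 11.75. Neither core protein was called, with adjusted p of 0.061 and 0.848 at P3 (limma).

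Complex IV, cytochrome c oxidase, has broadly expressed subunits and isoforms restricted to tissues such as heart, muscle, lung or testis. Of its 12 tested genes 1 was called in each comparison with E18, beside 41.3% of all genes tested at P3 and 31.7% at P6. That gene was Cox7a2l, a relative of Cox7a2 linked to supercomplexes of complexes III and IV rather than a subunit in its usual sense. Its function in these mice was not tested. Cox7a2l read 11.84 and 11.93 on the E18 arrays, then 10.94 and 10.77 at P3, then 11.18 and 11.32 at P6. The stages did not overlap, and the changes were -1.03 ± 0.20 at P3 (adjusted p = 0.0075) and -0.64 ± 0.20 at P6 (adjusted p = 0.0499). All 3 of its probe sets were lower at P3, by -1.03, -1.08 and -1.37. The P6 call lay at the threshold and was absent in 9 of 18 alternatives, including those without either P6 array.

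None of the 8 tested broadly expressed complex IV subunits was called by limma. At P3, 3 of 8 had an unadjusted p below 0.05, beside 7206 of all 13645 genes tested. Cox4i1, the regulatory subunit that binds adenine nucleotides, read 12.81 and 12.83 on the E18 arrays, then 12.45 and 12.04 at P3, then 12.44 and 12.59 at P6, and its change of -0.57 ± 0.20 at P3 missed the threshold (adjusted p = 0.0502). Cox8a read 11.70 and 11.68, then 11.18 and 10.34, then 11.003 and 11.46, and missed it as narrowly (adjusted p = 0.0505). Cox5a lay the other way, with 12.25 and 12.27, then 12.99 and 12.56, then 12.94 and 12.55 (0.51 ± 0.22 at P3, adjusted p = 0.0935). The probe sets of Cox5a disagreed, as its other sets gave -0.64 and 0.35 at P3. Cox5b, Cox6a1, Cox6b1, Cox6c and Cox7a2 had changes between -0.19 and 0.11 at P3. Their other probe sets ran from -0.42 (Cox6b1) to 0.64 (Cox6c).

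The tissue-restricted isoforms were mostly dim. Cox6b2, Cox7a1, Cox7b2 and Cox8b were below the filter, with readings from 3.72 to 6.53 over the 6 arrays. Cox4i2, the lung isoform, read 5.92 to 6.396 and was not called. Cox6a2, the heart and muscle isoform, read 6.10 and 5.93 on the E18 arrays, then 6.29 and 7.21 at P3, then 6.71 and 6.44 at P6, which is not called (0.74 at P3, adjusted p = 0.082). Cox8c, the testis isoform, had a change of 0.48 at P3, not called. Cox7c, a broadly expressed subunit, was the one such gene left out as dim, with 6.63 on both E18 arrays, 5.64 and 4.81 at P3, and 5.57 and 5.87 at P6. Its probe set lay near background after E18, and no test was made.

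Complex V had 2 genes that fell among 17 between E18 and P3 (median -0.30) and 1 between E18 and P6 (median 0.04). Of all genes tested, 25.7% and 16.9% were called lower. In the catalytic head, Atp5a1, the alpha subunit, read 12.36 and 12.44 on the E18 arrays, then 12.49 and 12.11 at P3, then 12.56 and 12.55 at P6, with E18 and P3 overlapping. Atp5b, the beta subunit, read 12.82 and 12.91, then 12.46 and 11.22, then 12.90 and 12.95. Its change of -1.02 ± 0.36 was not called (adjusted p = 0.056), and the low value was again that of P3 replicate 2. Atp5d, the delta subunit of the central stalk, fell by 0.88 ± 0.26 at P3 (adjusted p = 0.0321), from 12.82 and 12.84 to 12.06 and 11.83, and read 12.38 and 13.14 at P6. Its second probe set gave -1.52, and its call was lost without either P3 array. Atp5c1 and Atp5e of the same head had changes of -0.32 and -1.03 at P3, not called.

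The c-ring genes held the lowest and the highest estimates of P6 minus E18 among the 88 genes. Atp5g1, Atp5g2 and Atp5g3 encode the same mature c subunit behind different import sequences, and the ring of c subunits is the rotor that protons turn. Atp5g2 read 11.81 and 11.81 on the E18 arrays, then 10.26 and 9.76 at P3, then 10.08 and 10.48 at P6. All 4 postnatal arrays lay over 1 log2 unit below E18, with changes of -1.80 ± 0.27 at P3 (3.49-fold; adjusted p = 0.00225) and -1.54 ± 0.27 at P6 (2.90-fold; adjusted p = 0.00448). Atp5g1 read 10.39 and 10.41 on the E18 arrays, then 11.15 and 10.19 at P3, then 11.09 and 11.65 at P6. Both P6 arrays lay above E18, and the change of 0.97 ± 0.36 was not called (adjusted p = 0.0777).

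Atp5g3, the remaining c-subunit gene, read 12.94 and 12.90 on the E18 arrays, then 13.01 and 12.57 at P3, then 13.08 and 12.84 at P6, with overlapping stages and a 95% interval at P6 from -0.43 to 0.50. Relative to the E18 mean, Atp5g1 gained on Atp5g2 by 2.31 and 1.85 on the P3 arrays and by 2.43 and 2.59 on the P6 arrays, and Atp5g3 gained on Atp5g2 by 1.65 and 1.70 and by 1.89 and 1.25. These differences compare changes within an array, not levels between probe sets, and show unequal change only; the difference between the genes was not tested. The fall of Atp5g2 was called in 17 of 18 alternatives at each stage. The exception in both was adjustment for the hybridization controls, with a change of -0.58 (adjusted p = 0.0514) at P3 and -0.54 (adjusted p = 0.0648) at P6. It moved in the same direction as the progenitor genes named above, and the part of those cells was not tested. The other probe sets of Atp5g2 were near background, at 3.93 to 4.51.

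The peripheral stalk that holds the head still (Atp5h, Atp5j, Atp5o and Atp5pb) and the membrane subunits (Atp5j2, Atp5k, Atp5l, Atp5md and Atp5mpl) had no called gene by limma in any comparison with E18. Of these 9 genes 0 had an unadjusted p below 0.05 there, beside 7206 of all 13645 genes tested at P3 and 5820 at P6. Changes of the 9 genes ran from -0.58 for Atp5o to 0.50 for Atp5md at P3 and from -0.28 for Atp5l to 0.40 for Atp5md at P6. Their other probe sets ran from -0.88 (Atp5pb) to 0.72 (Atp5j2) at P3 and from -0.59 (Atp5h) to 0.55 (Atp5o) at P6.

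**Figure D3:**
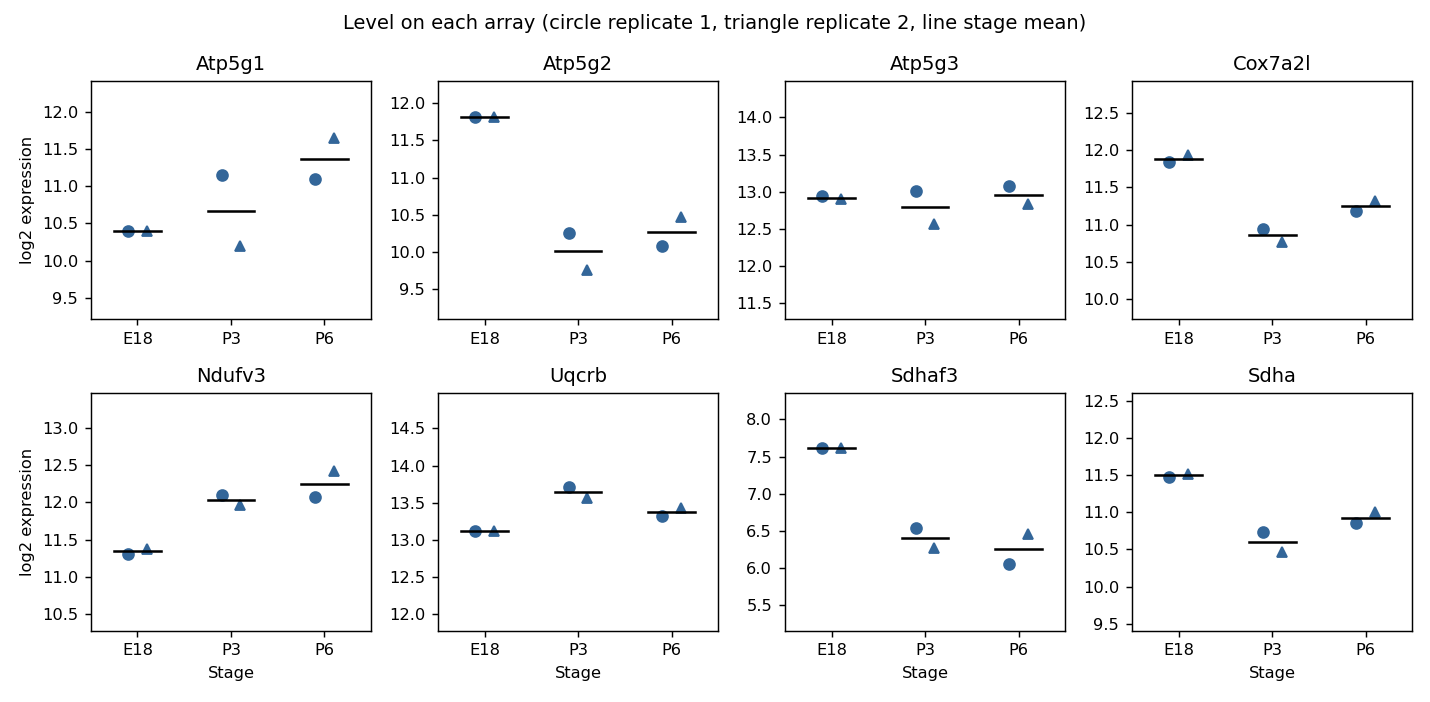
Log2 expression on each array for the c-ring genes Atp5g1, Atp5g2 and Atp5g3 and for Cox7a2l, Ndufv3, Uqcrb, Sdhaf3 and Sdha; every panel spans the same number of log2 units, circles are replicate 1, triangles replicate 2 and lines the stage mean. The postnatal arrays of Atp5g2 (9.76 to 10.48) and Sdhaf3 (6.05 to 6.53) lie below E18, those of Ndufv3 (11.97 to 12.42) lie above it, and Atp5g3 overlaps between stages.

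Whether the change from P3 to P6 differed from that between E18 and P3 was tested directly in the same limma fit. The change in the second interval was higher than in the first for 3 of 88 genes and lower for 0, beside 22% of all genes tested (16.7% higher and 5.28% lower). The genes were Atp5g2 (difference 2.07, adjusted p = 0.023), Atp5d (1.70, adjusted p = 0.0377) and Cox7a2l (1.42, adjusted p = 0.0316), each of which fell in the first interval and had a positive estimate in the second. At an unadjusted p below 0.05 there were 18 of 88, beside 5464 of 13645 genes. P3 enters both intervals with opposite sign, so the difference rests on the P3 arrays most; without P3 replicate 1 it was called for 42 of the 88 genes (47.7%, beside 47.1% of all genes), and without E18 replicate 1 or 2 for 0 (beside 9.7% and 9.18% of all genes).

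Other mitochondrial genes gave a wider range of shares. They were counted in 8 lists of nuclear genes, which were put together with earlier results of these data known, and no list was tested as a set. The shares stand beside 41.3% of all genes tested called between E18 and P3 (15.5% higher and 25.7% lower), and those of 5 of the 8 lists lay below it, between 18.4% and 36.7%. Called genes between E18 and P3 made up 21 of 33 regulators of mitochondrial biogenesis (3 rose and 18 fell), 6 of 11 antioxidant enzymes (2 and 4), 13 of 25 metabolite carriers and energy-transfer enzymes (5 and 8), 11 of 30 import factors and chaperones (2 and 9) and 8 of 24 genes of mitochondrial dynamics and transport (3 and 5). The shares were 12 of 38 electron carriers and assembly factors outside the prefix rule (4 and 8), 7 of 24 genes of pyruvate dehydrogenase and the citric acid cycle (2 and 5) and 14 of 76 proteins of the mitochondrial ribosome (0 and 14). Between E18 and P6 the ribosome had 4 of 76 called, beside the 4 of 88 of the respiratory chain and 31.7% of all genes tested.

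**Figure D4:**
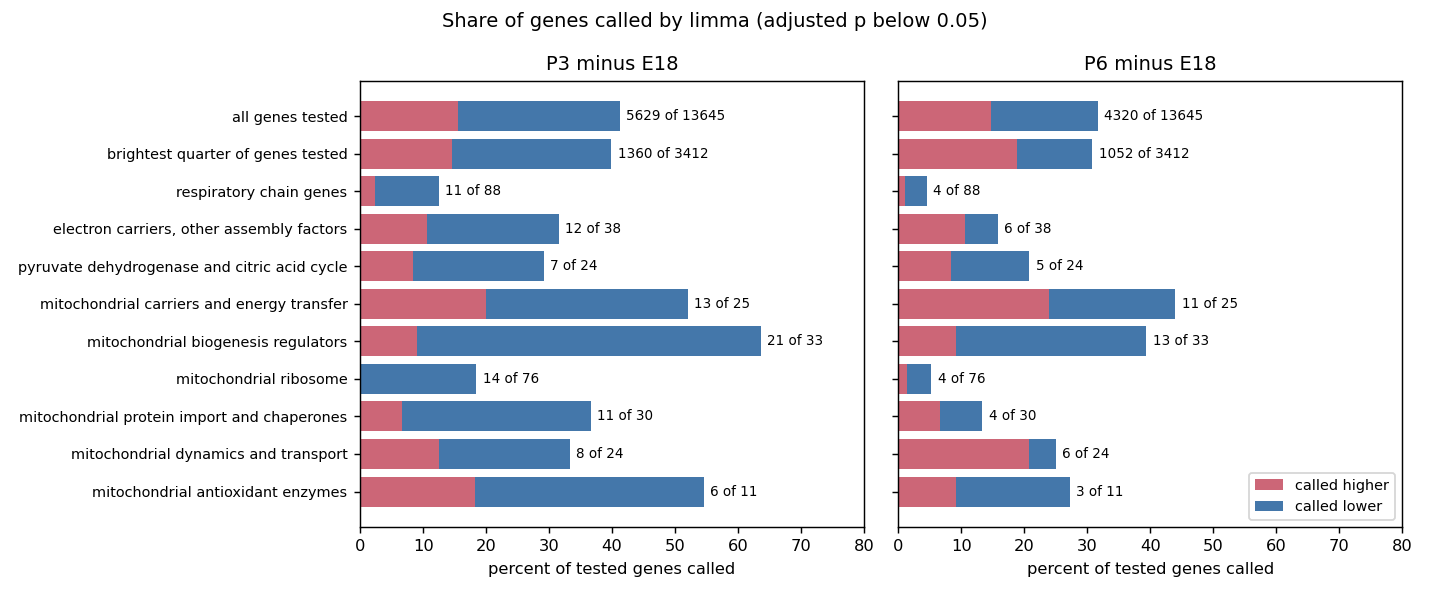
Percent of tested genes called by limma in P3 minus E18 and in P6 minus E18, split into higher and lower, for all genes tested, the brightest 25%, the respiratory chain genes and 8 lists of other mitochondrial genes, with counts beside the bars. The respiratory chain has 11 of 88 and 4 of 88 called, and the biogenesis regulators 21 of 33 and 13 of 33.

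Genes that stand next to the chain in function were called in both directions. Cycs, which encodes the cytochrome c that links complexes III and IV, read 11.59 and 11.69 on the E18 arrays, then 12.54 and 12.45 at P3, then 12.51 and 12.14 at P6, a rise of 0.85 ± 0.20 at P3 (adjusted p = 0.014, limma) and 0.68 ± 0.20 at P6 (adjusted p = 0.0364). Without either E18 array its calls were lost (adjusted p from 0.100 to 0.287), as was the P6 call without P6 replicate 1 (0.50). Sco2, which delivers copper to complex IV, rose by 0.72 ± 0.23 at P3 (adjusted p = 0.0397) and 1.99 ± 0.23 at P6 (adjusted p = 0.000636), from 7.36 and 7.42 at E18 to 9.31 and 9.45 at P6; the P3 call was lost without either E18 array. Cmc2, another factor of complex IV assembly, fell by 2.81 ± 0.27 at P3 (adjusted p = 0.000304). Nubpl, which inserts iron-sulfur clusters into complex I, fell by 2.25 ± 0.47 at P3 (adjusted p = 0.0089), a call lost without P3 replicate 2 (-1.98, adjusted p = 0.0684).

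Enzymes that feed or use the chain also moved both ways. Ckmt1, the mitochondrial creatine kinase that exports the energy of ATP as phosphocreatine, read 6.01 and 6.03 on the E18 arrays, then 9.11 and 8.26 at P3, then 9.52 and 10.23 at P6. It rose by 2.67 ± 0.35 at P3 and 3.86 ± 0.35 at P6 (adjusted p = 0.00134 and 0.000229). Ak3, a matrix adenylate kinase, fell by 2.65 ± 0.32 at P3 (adjusted p = 0.000848). Pcx, the pyruvate carboxylase that refills the citric acid cycle and is abundant in astrocytes, fell by 3.32 ± 0.20 at P3 (adjusted p = 4.05e-05), and Idh2 of the cycle by 2.53 ± 0.24 (adjusted p = 0.000278); the astrocyte and progenitor markers given above moved the same way.

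Among the 24 tested genes of mitochondrial dynamics and transport, 3 rose and 5 fell between E18 and P3, and 5 rose and 1 fell between E18 and P6. Of all genes tested, 15.5% rose and 25.7% fell at P3, and 14.8% rose and 16.9% fell at P6. Kif5a, a kinesin that carries mitochondria along axons, read 9.29 and 9.26 on the E18 arrays, then 11.45 and 11.60 at P3, then 12.34 and 12.13 at P6, a rise of 2.25 ± 0.22 at P3 (adjusted p = 0.000288) and 2.96 ± 0.22 at P6 (adjusted p = 8.34e-05). Snph, which anchors mitochondria in axons, rose by 1.81 ± 0.27 at P6 (adjusted p = 0.00223), and Gdap1, a fission factor of neurons, by 1.96 ± 0.25 at P3 (adjusted p = 0.00119). Rhot2, an outer-membrane GTPase that links mitochondria to motors, read 9.13 on both E18 arrays, then 7.59 and 7.30 at P3, then 8.13 and 8.99 at P6. It fell by 1.69 ± 0.32 at P3 (adjusted p = 0.00583), and Trak1, an adaptor of the same link, fell by 0.96 ± 0.32 (adjusted p = 0.0451), a call that was lost when any 1 array other than P3 replicate 1 was left out. Neither was called between E18 and P6. Mtfp1, another fission factor, read 7.19 and 7.16, then 6.83 and 6.88, then 8.43 and 8.47, and its change between P3 and P6 of 1.598 ± 0.18 was not called (adjusted p = 0.0981).

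Of the 13 protein-coding genes of the mitochondrial genome, 1 was represented, ND5, a pump subunit of complex I. ND5 read 11.68 and 11.74 on the E18 arrays, then 12.11 and 13.12 at P3, then 11.94 and 12.09 at P6. Its highest array was P3 replicate 2, the array on which most nuclear chain genes were lowest, and its change of 0.91 ± 0.32 at P3 was not called (adjusted p = 0.055).

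Several factors known to drive nuclear genes of the chain fell. Nrf1 and GABP (also termed NRF2, made of Gabpa with Gabpb1 or Gabpb2) bind the promoters of many chain genes, and Ppargc1a and Ppargc1b are coactivators that work with them and with the receptors Esrra and Esrrg. Nrf1 read 8.57 and 8.61 on the E18 arrays, then 6.87 and 6.72 at P3, then 7.60 and 7.20 at P6, a change of -1.80 ± 0.22 at P3 (adjusted p = 0.000905) and -1.19 ± 0.22 at P6 (adjusted p = 0.00547; 0.0539 without E18 replicate 2). Gabpa read 9.67 and 9.70, then 7.55 and 7.37, then 7.13 and 7.45, changing by -2.22 ± 0.22 and -2.39 ± 0.22 (adjusted p = 0.000379 and 0.000257). Gabpb2 read 9.11 and 9.12, then 5.79 and 5.70, then 6.27 and 6.37, a change of -3.38 ± 0.17 at P3 (adjusted p = 1.95e-05). For all 3 genes every postnatal array lay below both E18 arrays, and the calls at P3 held in every alternative that tested them. In either direction, P3 arrays did not overlap E18 for 10998 of all 13645 genes tested.

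The coactivators Ppargc1a and Ppargc1b moved in opposite directions at P3. Ppargc1a read 8.92 and 9.04 on the E18 arrays, then 7.30 and 7.35 at P3, then 8.78 and 6.98 at P6; its change of -1.66 ± 0.51 was called at P3 (adjusted p = 0.0379), and the P6 arrays differed by more than 2-fold. Ppargc1b read 6.47 and 6.54, then 7.35 and 7.66, then 7.77 and 8.78, rising by 0.998 ± 0.33 at P3 (adjusted p = 0.0469) and 1.77 ± 0.33 at P6 (adjusted p = 0.00597). Esrrg rose by 2.34 ± 0.28 at P3 (adjusted p = 0.000789), whereas Esrra had a change of 0.20 ± 0.20 (adjusted p = 0.446). Tfam, which packages and transcribes mitochondrial DNA, fell by 1.30 ± 0.43 at P3 (adjusted p = 0.0453) and was not called at P6. With 1 array left out its change at P3 ran from -1.998 (without P3 replicate 1) to -0.60 (without P3 replicate 2), and its call was lost without either P6 array and after quantile normalization. The P3 calls of Ppargc1a, Ppargc1b and Tfam were lost without either E18 array.

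**Figure D5:**
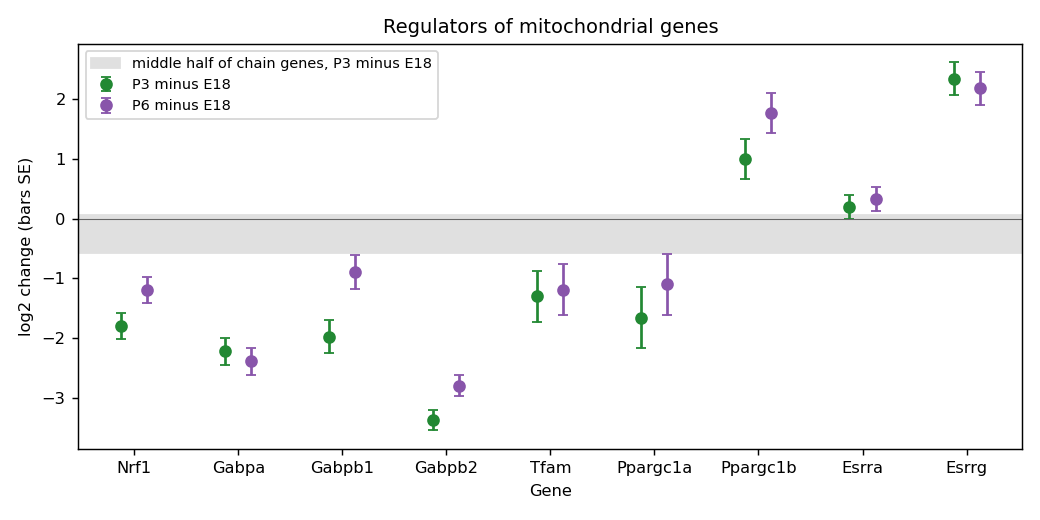
Log2 change with SE of 9 regulators of mitochondrial genes in P3 minus E18 and P6 minus E18; the grey band holds the middle 50% of the 88 respiratory chain genes in P3 minus E18. Nrf1, Gabpa, Gabpb1, Gabpb2, Tfam and Ppargc1a lie below the band at P3, Ppargc1b and Esrrg above it, and Esrra has a change of 0.20.

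Because these factors act at promoters, the 250 bases before the start of each chain gene were read from RefSeq (GRCm38.p6), where 78 of the 94 genes had 83 windows. They were searched on both strands for GCGCANGCG (NRF1, N for any base), CCGGAAG (the ETS site that GABP binds) and AANATGGC (YY1, a further factor of chain promoters). The last of these can overlap the GABP letters, since CCGGAAG can run on into ATGGC, and matches of different motifs overlapped in 0 of the 83 windows. NRF1 letters were in 18.1% of chain windows beside 7.08% of the windows of all protein-coding genes, GABP letters in 19.3% beside 8.98%, and YY1 letters in 9.64% beside 3.65%. At least 1 of the 3 was in 39.8% beside 17.8%. Windows of the c-ring genes and of the other 3 genes called in both comparisons with E18 are printed here 5′ to 3′ on the gene's strand, with capitals for matches to any of the 3 motifs, since these are the chain genes whose calls or estimates the account above turns on.
Atp5g1: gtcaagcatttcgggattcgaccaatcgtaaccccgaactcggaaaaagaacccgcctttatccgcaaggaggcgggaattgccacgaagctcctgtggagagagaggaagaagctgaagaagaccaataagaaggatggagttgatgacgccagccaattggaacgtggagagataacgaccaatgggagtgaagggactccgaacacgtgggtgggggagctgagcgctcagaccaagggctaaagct
Atp5g2: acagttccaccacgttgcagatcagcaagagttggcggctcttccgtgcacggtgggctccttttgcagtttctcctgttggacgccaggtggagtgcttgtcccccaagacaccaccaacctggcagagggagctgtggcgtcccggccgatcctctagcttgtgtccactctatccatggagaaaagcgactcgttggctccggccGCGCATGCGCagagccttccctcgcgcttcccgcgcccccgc
Atp5g3: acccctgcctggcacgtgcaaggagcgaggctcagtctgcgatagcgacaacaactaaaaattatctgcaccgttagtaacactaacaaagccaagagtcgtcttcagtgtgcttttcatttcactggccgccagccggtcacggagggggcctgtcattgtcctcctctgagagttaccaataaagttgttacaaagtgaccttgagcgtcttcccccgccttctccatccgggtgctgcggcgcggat
Cox7a2l: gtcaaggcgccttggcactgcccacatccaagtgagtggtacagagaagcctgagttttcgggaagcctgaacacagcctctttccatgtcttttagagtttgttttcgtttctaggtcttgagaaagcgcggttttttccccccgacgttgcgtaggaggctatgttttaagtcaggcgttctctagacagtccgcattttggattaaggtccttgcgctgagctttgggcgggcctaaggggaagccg
Ndufv3: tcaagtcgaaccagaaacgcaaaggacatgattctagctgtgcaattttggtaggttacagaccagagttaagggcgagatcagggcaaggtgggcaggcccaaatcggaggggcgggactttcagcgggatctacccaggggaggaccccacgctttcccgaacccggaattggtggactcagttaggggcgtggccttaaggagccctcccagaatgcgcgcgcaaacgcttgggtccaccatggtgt
Sdhaf3: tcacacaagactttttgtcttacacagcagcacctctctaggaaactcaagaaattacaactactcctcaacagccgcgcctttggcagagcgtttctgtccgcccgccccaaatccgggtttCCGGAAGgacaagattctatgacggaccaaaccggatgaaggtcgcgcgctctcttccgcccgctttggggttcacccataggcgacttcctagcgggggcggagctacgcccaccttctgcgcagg
The windows are chr11:96075632-96075881 (minus strand) for Atp5g1, chr15:102671048-102671297 (minus) for Atp5g2, chr2:73911327-73911576 (minus) for Atp5g3, chr17:83514334-83514583 (minus) for Cox7a2l, chr17:31519865-31520114 (plus) for Ndufv3 and chr6:6955768-6956017 (plus) for Sdhaf3. Each ends at the base before the annotated start, in sequence upstream of the first exon. Atp5g2 holds NRF1 letters on both strands, 2 matches that overlap and begin 42 and 41 bases before the start, and Sdhaf3 holds 1 GABP match, which begins 127 bases before it. The windows of Atp5g1, Atp5g3, Cox7a2l and Ndufv3 hold none of the 3 motifs, which says only that these letters are not in these windows.

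Among tested chain genes with a window, the 13 with NRF1 letters had a median change of -0.10 between E18 and P3 and 3 called genes (Atp5g2, Sdha and Sdhd), and the 59 without had a median of -0.21 and 7 called genes. The 16 with GABP letters had a median of -0.46 and 3 called genes (Sdhaf3, Sdhd and Uqcrh), and the 56 without had a median of -0.14 and 7 called. The 8 with YY1 letters had a median of -0.44 and 0 called genes, and the 64 without had a median of -0.14 and 10 called. Between E18 and P6 the medians were 0.09 with NRF1 letters and 0.03 without. They were -0.02 with GABP letters and 0.05 without, and -0.08 with YY1 letters and 0.07 without. These are descriptions of the windows, and no test was made of them.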

How the data were processed

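The authors deposited log2 expression values per probe set, made with RMA per the submitters' processing notes; its version was not given in the sources used here, nor whether all 6 arrays were run together. They were used as deposited, with no pseudocount. Arrays carry no read depth, and their number limits the precision. Gene symbols came from the platform's annotation, in which 34945 of 45101 probe sets had 1 symbol. The dimmest 25% of genes by mean were dropped (minimum mean 5.97), so Cox6b2, Cox7a1, Cox7b2, Cox7c, Cox8b and Ndufb4 were not tested. For 53 members over 1 probe set existed.

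The linear model of limma 3.58.1 (R 4.3.3) had a mean per stage and used all 6 arrays (lmFit, eBayes with an intensity trend, 3 residual degrees of freedom). Tests were 2-sided, with p-values adjusted over 13645 genes per contrast; errors are SE. An exact permutation test of 2 against 2 arrays cannot go below p = 0.333 and was not used. On simulated data for P3 minus E18 with 200 of 13645 genes changed, the fit recovered 6.9% of 2-fold and 58.4% of 4-fold changes, and 2.97% of calls were false. Changes near 2-fold were thus often missed in that setting. In the data 41.3% of genes tested were called, which alters the adjustment of p-values, so these rates do not carry over to the comparison itself.

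The members and gene lists were chosen with earlier results of these data known. Named in full were core subunits, tissue-restricted isoforms with their partners, and per complex or list up to 3 genes with the smallest p; Cycs, Gabpb1, Gabpb2, Esrrg, the genes missing the threshold narrowly and the promoters shown were chosen after their values were seen. Alternatives covered the probe set rule, the filter, normalization, array weights, covariates, a replicate block and each array left out; leaving out both arrays with high 18S signal was added after seeing the data.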

Additional observations from a re-analysis of the deposited data

How the results depend on the processing

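For P3 minus E18 the main count of 11 called respiratory chain genes became 17 with quantile normalization (19.3% beside 41.7% of all genes), 21 with array weights (23.9% beside 40.5%), 2 with the E18 arrays averaged and 1 after adjustment for the hybridization controls (1.14% beside 16.6%), and ran from 2 to 38 with 1 array left out. The median change of -0.19 became 0.14 with quantile normalization (all genes 0.09, from -0.13), 0.0571 with 18S signal as a covariate, ran from -0.50 to 0.0526 with 1 array left out, and was 0.0526 with P3 replicate 2 and P6 replicate 1 both left out, a value with no test. For P6 minus P3 the count of 0 ran from 0 to 30 and the median of 0.26 from 0.027 (without P3 replicate 2) to 0.537 with 1 array left out; 30 and 0.537 were those without P3 replicate 1. For P6 minus E18 the count of 4 became 15 with quantile normalization, 16 with array weights, 16 with only the stages compared, 14 with 18S signal as a covariate and 2 with the E18 arrays averaged, and ran from 2 to 17 with 1 array left out. For the second interval minus the first, the count of 3 became 5 without a filter on dim genes, 6 with the lowest 50% left out, 10 with quantile normalization, 5 with array weights, 0 with the E18 arrays averaged, 1 with the adjustment for hybridization controls and 6 with the 18S covariate, and ran from 0 to 42 with 1 array left out. The 4 complex II genes called at P3 became 2 with the mean of all probe sets, 1 with the E18 arrays averaged, 0 with the adjustment for hybridization controls and 2 with the 18S covariate, and at least 1 with 1 array left out. The 3 of complex III became 1 with the mean of all probe sets, 1 with only the stages compared, 0 with the E18 arrays averaged, 0 with the adjustment for hybridization controls, 1 with the 18S covariate, and at least 0 with 1 array left out. In each setting run, the share of respiratory chain genes called in P3 minus E18 and in P6 minus E18 was below that of all genes. Where no value above shows it, the cause was not tested.

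Replicate numbers were shared between stages but did not pair the arrays: deviations of same-numbered arrays correlated at -0.20 (E18 and P3), 0.04 (E18 and P6) and -0.14 (P3 and P6). With the replicate block, 11 respiratory chain genes were called in P3 minus E18, 3 in P6 minus E18 and 5 in the second interval minus the first. In a lone-array stage the remaining array is assumed to vary like the other stages.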
